A study of Mus musculus with 6 samples.

Results

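This account follows 5 genes linked to the uptake and activation of fatty acids in adipocytes, *Cd36*, *Lpl*, *Acsl1*, *Angptl4*, and *Pltp*. They were chosen by name from the 4864 genes analysed, which are only part of the genome's genes. RNA-seq was performed on adipose-derived stem cells (ADSCs) of wild-type mice, taken from subcutaneous fat and differentiated into adipocytes. In the vehicle group (labelled control, 3 libraries) the cells received the adipogenic medium, and in the NJT-2 group (3 libraries) the same medium with NJT-2. NJT-2 is saikosaponin A, a plant terpenoid that the study examines as a ligand of a PPAR nuclear receptor, and the comparison asks how it changes the metabolic state of the cells. The labels give no concentration or day for these cultures and do not say whether the libraries of a group came from separate animals, so the p-values measure the spread between these libraries.

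Most fatty acids that reach a fat cell travel in the blood as triglycerides inside lipoproteins. Lipoprotein lipase, encoded by *Lpl* and secreted by adipocytes, releases them, while ANGPTL4 inhibits the lipase and PLTP moves phospholipids between lipoprotein particles. CD36 at the cell surface takes up the released long-chain fatty acids, and ACSL1 joins them to coenzyme A, the step that commits them to storage or oxidation. All 5 genes are annotated to the PPAR signaling pathway (KEGG) in the deposited table.

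With NJT-2, *Cd36* rose from a mean FPKM of 1.30 ± 1.47 (SD, n = 3) to 353 ± 130.1 (n = 3), and it was the only one of them that passed the test over all genes. *Acsl1*, *Lpl*, and *Pltp* lay above vehicle in every NJT-2 library without passing it, and *Angptl4* overlapped between the groups. Among the NJT-2 libraries, replicate 2 had the lowest *Cd36*, *Lpl*, *Acsl1*, and *Pltp* and the highest *Angptl4*.

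The reference sequences before the start sites of *Cd36* and *Acsl1* are shown because these genes had the largest differences between the groups. The windows are RefSeq promoters on GRCm38.p6, from 250 bases before the start site to 50 bases after it, and 3 of the 5 genes had such a window. *Cd36* lies on the minus strand, with its window at chr5:17835847-17836146, where RefSeq but no GENCODE M21 transcript places a start. *Acsl1* lies on the plus strand and has an upstream window at chr8:46470787-46471086 and a downstream one at chr8:46490716-46491015. Capitals mark AGGTCA, the hexamer that nuclear receptors recognise, and GGGCGG, the GC box, on either strand.
Cd36 promoter: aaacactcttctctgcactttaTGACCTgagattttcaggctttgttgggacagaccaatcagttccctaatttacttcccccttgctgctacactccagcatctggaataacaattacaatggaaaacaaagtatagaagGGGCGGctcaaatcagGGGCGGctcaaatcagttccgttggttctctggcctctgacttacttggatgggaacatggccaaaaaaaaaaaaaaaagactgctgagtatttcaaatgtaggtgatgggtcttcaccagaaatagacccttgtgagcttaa
Acsl1 upstream promoter: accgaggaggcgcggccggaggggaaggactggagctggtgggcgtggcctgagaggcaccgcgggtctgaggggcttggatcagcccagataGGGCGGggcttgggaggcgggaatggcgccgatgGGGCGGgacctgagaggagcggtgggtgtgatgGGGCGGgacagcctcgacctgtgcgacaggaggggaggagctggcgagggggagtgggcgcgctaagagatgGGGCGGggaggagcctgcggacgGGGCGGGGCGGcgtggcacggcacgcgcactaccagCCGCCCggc
Acsl1 downstream promoter: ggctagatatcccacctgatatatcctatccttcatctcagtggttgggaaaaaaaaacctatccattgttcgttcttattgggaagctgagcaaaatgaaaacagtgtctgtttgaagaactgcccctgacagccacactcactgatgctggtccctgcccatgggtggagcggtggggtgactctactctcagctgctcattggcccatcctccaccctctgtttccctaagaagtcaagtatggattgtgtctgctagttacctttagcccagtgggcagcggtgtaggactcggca
The *Cd36* window holds 1 AGGTCA, read on the strand opposite to the gene and beginning at position -228 from the start site, and 2 copies of GGGCGG nearer to the start. The upstream *Acsl1* window is rich in G and C (74%, against a median of 52.7% over 32851 windows) and holds 7 copies of GGGCGG, of which a neighbouring pair shares a base, and no AGGTCA. The downstream *Acsl1* window has a G and C content of 50% and neither motif, and the window of *Pltp* holds 1 GGGCGG and no AGGTCA. Over all windows, counting both strands, 16.3% hold AGGTCA and 35.7% hold GGGCGG. The longer element of AGGTCA, any base, and AGGTCA again, which PPARs bind together with their partner RXR, is in 0.0396% of all windows and in none of these 4. A match of letters is a description of the window only. *Lpl* and *Angptl4* had no window.

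Per library, between 16093037 and 28929673 counts fell on the 4864 genes. Dividing counts by FPKM and length gives whole-library totals between 58103605 and 89136200. FPKM is the read count divided by a gene's length and the library total. Its length here is that of all exons of the gene joined (within 1% for 384 of 387 well expressed genes). The counts of the 3705 genes whose mean FPKM reached 0.5 went into edgeR's quasi-likelihood test. A gene was called where its p, adjusted by Benjamini-Hochberg, was below 0.05 and its log2 fold change was beyond 1 in either direction. Vehicle replicate 1 and NJT-2 replicate 2 stood apart from their groups. The Euclidean distance of log2(FPKM + 1) values was 27.7 between the other vehicle libraries and 11.8 between the other NJT-2 libraries, and between 53.8 and 71.3 for every other pair within a group. The tests of the 5 genes, and the counts and main genes of the lists further on, are therefore also given without both of them.

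Of the 5 genes, 1 was called higher, where 0.567% of all tested genes were, and 4 had every NJT-2 library above every vehicle library, where 14.4% of all tested genes did and 25.9% were separated in either direction. An unadjusted p under 0.05 with a higher level was reached by 4 of the 5 and by 8.04% of all tested genes, and a log2 fold change above 0 by 5 of the 5 and by 50.8%. DESeq2, the tool of the study's methods, called 3 of the 5 higher (*Cd36*, *Acsl1*, and *Lpl*), against 4.40% of all tested genes. As the genes were chosen with earlier results of these data known, these counts describe the 5 genes.

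**Figure D1:**
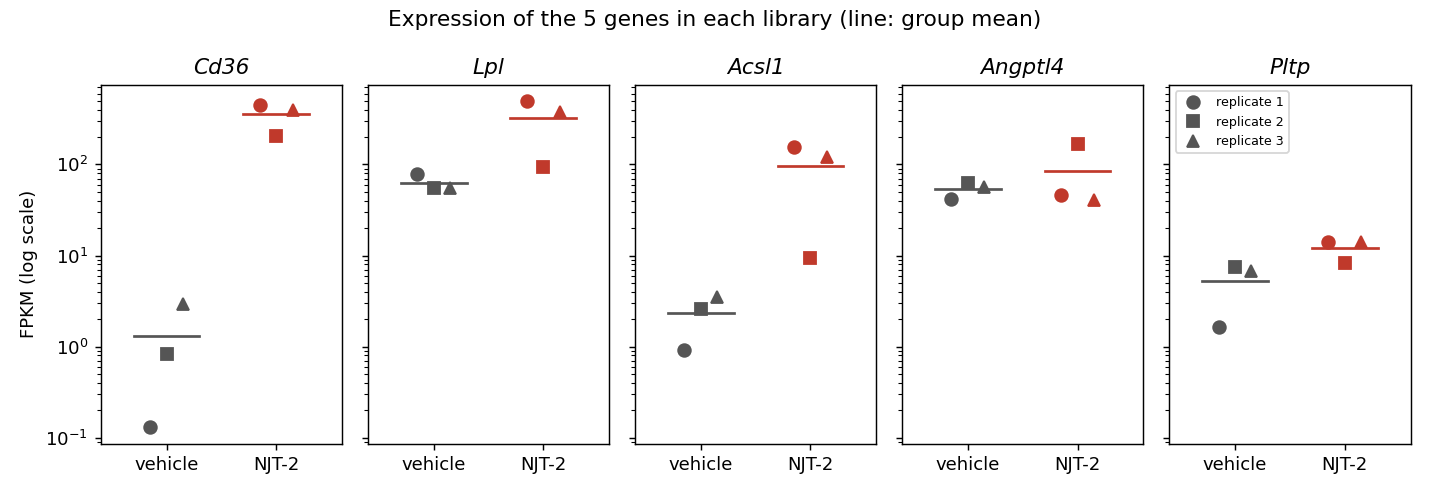
FPKM of each gene (log scale) in the vehicle (grey) and NJT-2 (red) libraries, with the replicate as the marker shape and the group mean as a line. *Cd36* goes from at most 2.95 to at least 206.4, while in *Lpl*, *Acsl1*, and *Pltp* NJT-2 replicate 2 lies closest to the vehicle libraries and in *Angptl4* farthest above them.

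*Cd36* (ENSMUSG00000002944) lies on chromosome 5 of GRCm38 from 17781690 to 17888801 and has up to 16 exons. The vehicle libraries held 28, 265, and 757 of its reads and the NJT-2 libraries 115552, 51925, and 100347, in replicate order. Its FPKM was 0.13, 0.82, and 2.95 with vehicle and 453.68, 206.4, and 400.01 with NJT-2. The lowest NJT-2 library was thus 70.0-fold above the highest vehicle library, the widest gap of the 5 genes. The vehicle libraries differed among themselves 22.7-fold, the NJT-2 libraries 2.198-fold. With a log2 fold change of 8.08 (SE 1.10, adjusted p = 0.0278 in edgeR), *Cd36* had the largest estimated rise of the 3705 tested genes.

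The *Cd36* mRNA took up between 4.82e-05% and 0.00106% of the reads in the vehicle libraries and between 0.0741% and 0.163% in the NJT-2 libraries. The estimate of the rise stayed within 7.53 and 9.36 on the log2 scale when each library was left out, but the call was lost without vehicle replicate 1 (adjusted p = 0.0612, edgeR), vehicle replicate 2 (0.246), NJT-2 replicate 1 (0.105), or NJT-2 replicate 3 (0.102). Without both distant libraries the log2 fold change was 7.82 (SE 0.72, adjusted p = 0.00312 in edgeR).

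*Acsl1* (ENSMUSG00000018796), on chromosome 8 from 46471037 to 46536051, was scarce with vehicle, at 0.92, 2.6, and 3.51 FPKM in replicates 1, 2, and 3. In NJT-2 replicates 1, 2, and 3 it was 154.82, 9.36, and 121.96. Every NJT-2 library lay above every vehicle library, but NJT-2 replicate 2 was only 3.99-fold above the vehicle mean, against 66.1-fold and 52.0-fold in replicates 1 and 3. The NJT-2 libraries spanned 16.5-fold, the widest range of the 5 genes in that group. With a log2 fold change of 5.24 (SE 1.001), *Acsl1* ranked 13 among the 3705 tested genes by estimated rise and did not pass the threshold (adjusted p = 0.0775 in edgeR).

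*Acsl1* was called without NJT-2 replicate 2 (log2 fold change 5.77, SE 0.48, adjusted p = 0.0142 in edgeR) and without both distant libraries (5.50, SE 0.30, adjusted p = 0.000937). DESeq2 called it with all libraries, with a log2 fold change of 5.25 (adjusted p = 4.54e-09). In edgeR the adjusted p was between 0.103 and 0.354 when any other single library was left out. A gene model of uncertain status, Gm45244, runs antisense to *Acsl1* over 2200 bases at its start, and was not analysed here.

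*Lpl* (ENSMUSG00000015568), on chromosome 8 from 68880491 to 68906934, was already well expressed with vehicle. Its FPKM was 78.79, 55.14, and 55.62 with vehicle (replicates 1, 2, and 3), against 493.78, 92.72, and 373.33 with NJT-2 (likewise). The vehicle libraries agreed within 1.43-fold, whereas the NJT-2 libraries spanned 5.33-fold. NJT-2 replicate 2 was 1.18-fold above the highest vehicle library, and replicates 1 and 3 were 7.82-fold and 5.91-fold above the vehicle mean. The log2 fold change of 2.04 (SE 0.65) ranked 136 of 3705 and did not pass the threshold in edgeR (adjusted p = 0.200).

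In NJT-2 replicate 1, *Lpl* alone held 0.517% of all reads, compared with 0.0971% in NJT-2 replicate 2 and between 0.0578% and 0.0826% in the vehicle libraries. *Lpl* was called by DESeq2 (log2 fold change 2.05, adjusted p = 0.0184) and in edgeR without both distant libraries (2.96, SE 0.27, adjusted p = 0.00297). Leaving out any single library gave no call, with an adjusted p between 0.0699 (without NJT-2 replicate 2) and 0.457 (without vehicle replicate 2) in edgeR.

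*Angptl4* (ENSMUSG00000002289), on chromosome 17 from 33773750 to 33781830, encodes the inhibitor of lipoprotein lipase and is known to respond to PPARs and to low oxygen. Its FPKM was 41.27, 62.46, and 56.4 with vehicle (replicates 1, 2, and 3), against 46.34, 166.16, and 41.05 with NJT-2 (likewise). NJT-2 replicates 1 and 3 lay within or just below the vehicle range, and replicate 2 lay 3.11-fold above the vehicle mean. The log2 fold change of 0.55 was smaller than its SE of 0.59 (adjusted p = 0.604 in edgeR). Without NJT-2 replicate 2 it was -0.50 (SE 0.24, adjusted p = 0.324), and without both distant libraries -0.45 (SE 0.18, adjusted p = 0.148), so that 1 library set the direction.

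*Pltp* (ENSMUSG00000017754), on chromosome 2 from 164839518 to 164857633, had the lowest level of the 5 genes with NJT-2. Its FPKM was 1.63, 7.47, and 6.78 with vehicle (replicates 1, 2, and 3), against 13.94, 8.33, and 13.99 with NJT-2 (likewise). The groups did not overlap, but NJT-2 replicate 2 was only 1.12-fold above vehicle replicate 2. The log2 fold change was 1.13 (SE 0.46) with an unadjusted p of 0.0412 that did not pass adjustment (adjusted p = 0.269 in edgeR). Without vehicle replicate 1, the lowest library, it was 0.74 (SE 0.28, adjusted p = 0.308), and without both distant libraries 0.96 (SE 0.19, adjusted p = 0.0238), just inside the limit on the fold change and so not called.

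The end of *Pltp* overlaps by 1515 bases with *Ctsa*, which encodes the lysosomal protease cathepsin A and is transcribed from the other strand. *Ctsa* had an FPKM between 50.61 and 61.63 with vehicle and between 62.64 and 69.66 with NJT-2 (log2 fold change 0.09, SE 0.31, adjusted p = 0.873 in edgeR). The libraries keep the strand, but whether the counting used it is not given in the sources used here, and the part of *Ctsa* reads in the *Pltp* values was not tested.

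**Figure D2:**
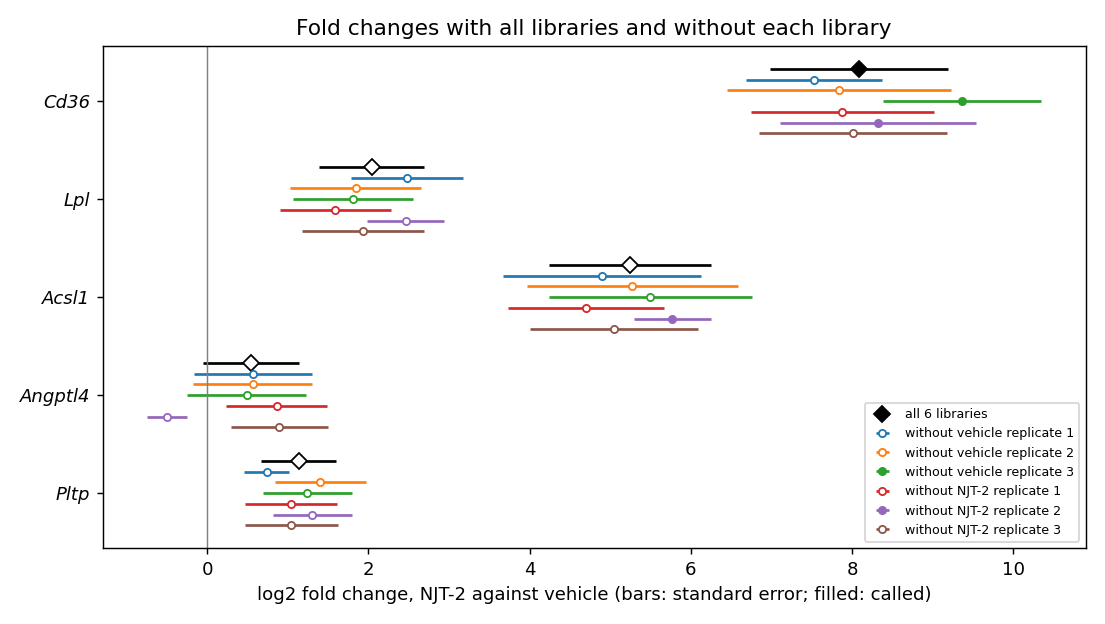
Log2 fold change of each gene in edgeR with its standard error, with all 6 libraries (diamonds) and without each library in turn (circles), filled where the gene was called. *Angptl4* is the gene whose estimate changes sign, from 0.55 to -0.50 without NJT-2 replicate 2, and without that library *Acsl1* is called.

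In the vehicle cultures, the order of the mean FPKM was *Lpl* (63.2 ± 13.5, SD, n = 3), *Angptl4* (53.4 ± 10.9), *Pltp* (5.29 ± 3.19), *Acsl1* (2.34 ± 1.31), and *Cd36* (1.30 ± 1.47). The ranges of neighbouring genes overlapped except between *Angptl4* and *Pltp*. With NJT-2 the order was *Cd36* (353 ± 130.1), *Lpl* (320 ± 205.8), *Acsl1* (95.4 ± 76.3), *Angptl4* (84.5 ± 70.8), and *Pltp* (12.1 ± 3.25), and again only *Angptl4* and *Pltp* were separated. The order depends on the length used. The joined exons of *Lpl* and *Acsl1* measure 10478 and 10483 bases, against 4115 and 3897 bases for their longest protein-coding transcripts. The same FPKM calculation with the length of the longest coding transcript put *Lpl* (815 ± 524) above *Cd36* (373 ± 137) with NJT-2, with overlapping ranges, and *Acsl1* at 257 ± 205.2. On that scale *Lpl* in the vehicle libraries (140.4 to 200.6) no longer overlapped with *Angptl4* (44.2 to 66.9). The choice of length changes no comparison of a gene between the groups.

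The balance between the genes shifted within the libraries. The ratio of *Cd36* to *Lpl* FPKM was 0.00165, 0.0149, and 0.0530 with vehicle (replicates 1, 2, and 3), against 0.919, 2.23, and 1.07 with NJT-2 (likewise). With the lengths of the longest coding transcripts, the ratio was at most 0.0220 with vehicle and was 0.381, 0.923, and 0.444 with NJT-2, so the groups were separate on both scales and only the FPKM put *Cd36* above *Lpl* in any library. The ratio of *Acsl1* to *Lpl* was 0.0117, 0.0472, and 0.0631 with vehicle and 0.314, 0.101, and 0.327 with NJT-2, without overlap. The ratio of *Angptl4*, the inhibitor, to *Lpl*, the enzyme, was 0.524, 1.13, and 1.01 with vehicle and 0.0938, 1.79, and 0.110 with NJT-2. With the coding lengths it was 0.220, 0.476, and 0.426 with vehicle and 0.0395, 0.753, and 0.0462 with NJT-2. On both scales NJT-2 replicates 1 and 3 had the lowest ratios of all libraries and NJT-2 replicate 2 the highest, but whether the inhibitor exceeded the enzyme in NJT-2 replicate 2 depends on the length.

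Markers of the cell state moved with these values. Of 15 adipocyte markers, 7 were analysed, 6 tested, and 5 called higher with NJT-2 (*Adipoq*, *Gpd1*, *Lipe*, *Pnpla2*, and *Plin4*), against 0.567% of all tested genes. All 5 calls were lost without vehicle replicate 1 or vehicle replicate 2, where edgeR called 0 of all genes higher. It called 1 higher without NJT-2 replicate 1 or NJT-2 replicate 3, 2 without vehicle replicate 3, and 59 without NJT-2 replicate 2. Without both distant libraries 6 of 6 were called higher, against 7.15% of all tested genes. Of these, *Retn* had 0.27 and 0.15 FPKM in vehicle replicates 2 and 3, and *Adipoq* had at most 0.5 FPKM with vehicle. Both reached the mean FPKM of 0.5 there through the NJT-2 libraries alone, so this filter fixed their direction. The same held for both with all libraries, where *Retn* had 0.86 FPKM in vehicle replicate 1 but a vehicle mean below 0.5. The summed FPKM of the 7 adipocyte markers was between 19.87 and 25.56 with vehicle, and 719.2, 175.7, and 561.6 in NJT-2 replicates 1, 2, and 3. The labels call the cells mesenchymal stem cells under adipocyte differentiation. In these bulk cultures, a different share of adipocytes and a different amount of these RNAs per adipocyte cannot be told apart. Of 12 low-oxygen genes, 4 were analysed and tested and none was called in edgeR (0, and 0 at an unadjusted p under 0.05). DESeq2 called 0 of the 3 it gave an adjusted p. Their median log2 fold change was 1.28 with all libraries and -0.77 without both distant ones, where *Ndrg1* was called lower (-2.08, adjusted p = 0.00272 in edgeR), as were 6.29% of all tested genes. Their summed FPKM was between 93.4 and 196.5 with vehicle, and 119.8, 750.6, and 126.5 in NJT-2 replicates 1, 2, and 3. The library with the highest *Angptl4* was thus also the highest in these genes, such as *Vegfa*, the angiogenic growth factor (341.08 against at most 74.07 in the other libraries), and *Ndrg1* (183.24 against at most 14.42). Their part in the *Angptl4* result was not tested.

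Macrophages also express *Cd36* and *Lpl*. Of 15 macrophage markers, 5 were analysed and 3 tested, and *Adgre1*, which encodes F4/80, was called higher (log2 fold change 3.23, SE 0.49, adjusted p = 0.0408 in edgeR), as were 0.567% of all tested genes. This call was lost without vehicle replicate 1 or vehicle replicate 2, where 0 of all genes were called higher. The summed FPKM of the 5 was between 9.71 and 12.77 with vehicle and 58.51, 31.35, and 44.84 in NJT-2 replicates 1, 2, and 3, and their part in the results for *Cd36* and *Lpl* was not tested. *Cd68*, a lysosomal glycoprotein gene, had an FPKM between 5.1 and 7.34 with vehicle and between 19.67 and 29.78 with NJT-2 (log2 fold change 1.79, SE 0.35, adjusted p = 0.0820 in edgeR), and DESeq2 called it. The scavenger receptor genes *Msr1* and *Cd163*, too low to be tested, also had every NJT-2 library above every vehicle library, where 14.4% of all tested genes did. *Cd163* was near the floor, with 0, 0, and 6 reads with vehicle and 36, 15, and 22 with NJT-2. *Msr1* had 0.12 FPKM in NJT-2 replicate 2 against 0.07 in vehicle replicate 2. *Csf1r*, a growth factor receptor gene, overlapped between the groups (log2 fold change 0.03, SE 0.41). Without both distant libraries 3 of 4 tested markers were called higher, *Adgre1*, *Cd68*, and *Msr1*, against 7.15% of all tested genes. *Msr1* had at most 0.07 FPKM with vehicle. It reached the mean FPKM of 0.5 through the NJT-2 libraries alone, so this filter fixed its direction. The 4 endothelial markers analysed, of 10, summed to between 1.15 and 2.92 FPKM in all libraries. Of 11 markers of preadipocytes and fibroblasts, 5 were analysed and tested and *Pi16* was called lower (log2 fold change -3.83), against 0.135% of all tested genes. That call was lost without vehicle replicate 2, NJT-2 replicate 1, or NJT-2 replicate 3, where 0 of all genes were called lower. None of the 5 had a log2 fold change above 0 (0 of 5, median -1.35), 3 were lower at an unadjusted p under 0.05 (9.72% of all tested genes were), and DESeq2 called the same 3 lower, *Pi16*, *Dcn* (-1.84), and *Pdgfrb* (-1.35), against 3.40% of all tested genes. These 3 were also called in edgeR without both distant libraries, against 6.29% of all tested genes called lower there. The summed FPKM, most of it from the collagen gene *Col1a1*, was between 227.3 and 999.2 with vehicle and between 443.6 and 487.5 with NJT-2. *Myh11*, the 1 mural marker analysed of 6, had an FPKM between 0.7 and 3.67 in all libraries.

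**Figure D3:**
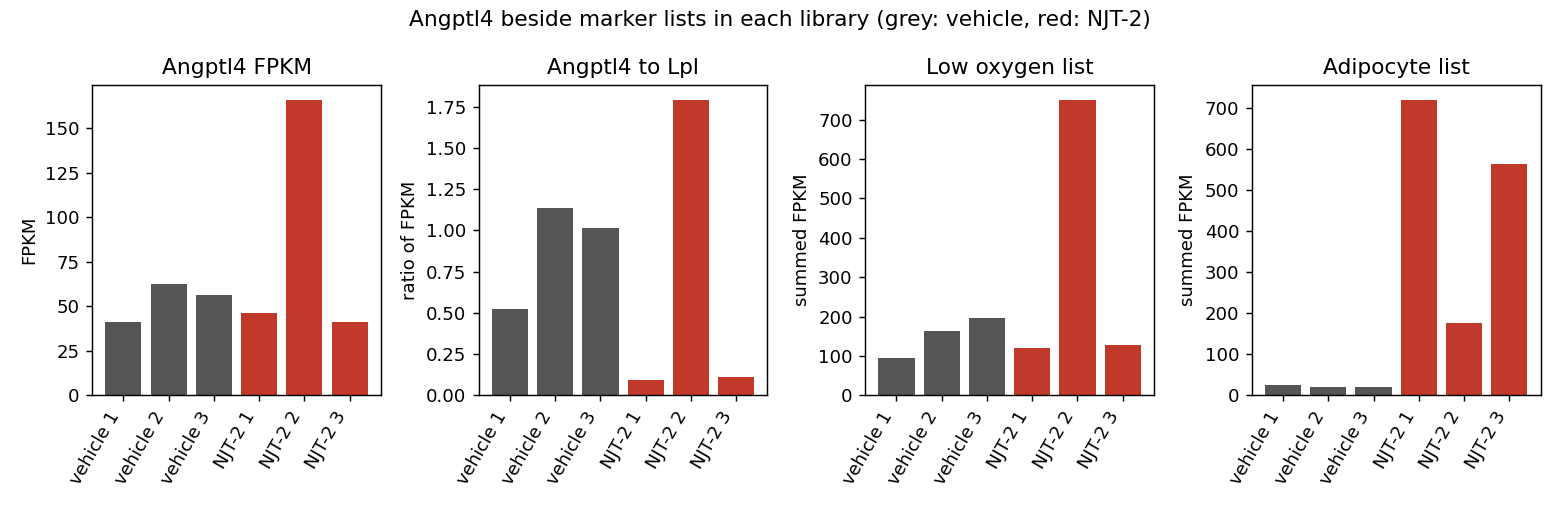
FPKM of *Angptl4*, the ratio of *Angptl4* to *Lpl* FPKM, and the summed FPKM of the low-oxygen and adipocyte lists (bars, 1 per library, vehicle in grey and NJT-2 in red). NJT-2 replicate 2 is the highest library in the first 3 panels (166.16 FPKM, 1.79, and 750.6 FPKM) and the lowest NJT-2 library for adipocyte genes (175.7 FPKM).

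Beyond the 5 genes, 60 further genes were listed for fatty acid uptake, lipolysis of lipoproteins, lipid transfer, and acyl-CoA synthesis and cleavage. Of these, 20 were analysed and 14 tested, 9 had a log2 fold change above 0, and 1 was called (*Acot2*, higher). Their median log2 fold change was 0.20, against 0.02 over all tested genes and a share of 0.702% called in either direction. DESeq2 called 4 of the 14, all higher (*Acot2*, *Abcg1*, *Apoe*, and *Vldlr*), against 4.40% of all tested genes called higher. Without both distant libraries 2 of the 14 were called, both higher (*Acot2* and *Abcg1*), against 7.15% of all tested genes called higher.

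Among the other uptake genes, *Vldlr*, the receptor that binds triglyceride-rich lipoproteins and presents them to the lipase, had an FPKM of 1.87, 7.67, and 10.06 with vehicle and 15.09, 69.08, and 14.12 in NJT-2 replicates 1, 2, and 3. Like *Angptl4*, it was highest in NJT-2 replicate 2, and it did not pass the threshold (log2 fold change 2.34, SE 0.79, adjusted p = 0.217 in edgeR, and 0.71, SE 0.19, adjusted p = 0.0565 without both distant libraries). DESeq2 called it (adjusted p = 0.0217). The fatty acid transporter gene *Slc27a6* had at most 112 counts and was not tested.

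In the lipoprotein lipase system, *Apoe*, which encodes a ligand for lipoprotein receptors, had an FPKM between 10.77 and 29.84 with vehicle and between 50.68 and 77.26 with NJT-2 (log2 fold change 1.62, SE 0.39, adjusted p = 0.134 in edgeR and 0.00475 in DESeq2). The genes for the maturation of the lipase did not share a direction. *Sel1l*, part of the machinery that lets the folded lipase leave the endoplasmic reticulum, had a log2 fold change of 0.71 (adjusted p = 0.312), whereas *Lmf2* and *Lmf1*, the lipase maturation factor genes, had -0.82 (adjusted p = 0.323) and -0.92 (adjusted p = 0.288), all in edgeR. *Gpihbp1*, whose product anchors the lipase on capillary endothelium, had 0 counts in 5 libraries and 4 in NJT-2 replicate 3.

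Of the transfer genes, *Abcg1*, a cholesterol exporter, had an FPKM between 0.75 and 1.74 with vehicle and between 4.12 and 4.99 with NJT-2. Its NJT-2 libraries were close to each other, NJT-2 replicate 2 included, and its adjusted p was 0.0676 in edgeR and 5.84e-05 in DESeq2 (log2 fold change 1.77, SE 0.33). *Abca1*, the other exporter, and *Lbp*, a relative of *Pltp* that binds lipopolysaccharide, overlapped between the groups (log2 fold changes 0.82 and -0.70, adjusted p = 0.427 and 0.299 in edgeR).

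Among the acyl-CoA synthetases, *Acsl5* ran opposite to *Acsl1*. Its FPKM was between 12.1 and 21.26 with vehicle and between 9.52 and 11.07 with NJT-2, without overlap (log2 fold change -0.91, SE 0.27, adjusted p = 0.182 in edgeR). Its adjusted p was 0.0212 in DESeq2 and 0.0189 in edgeR without both distant libraries, with a fold change inside the limit for a call in each. *Acsf3* had a log2 fold change of 0.10 (SE 0.57), and 1.03 (SE 0.30, adjusted p = 0.0680 in edgeR) without both distant libraries, and *Acsl6* had a mean FPKM under 0.5.

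*Acot2*, which encodes a mitochondrial enzyme that splits acyl-CoA back into fatty acid and coenzyme A, rose from an FPKM of 0.34, 0.99, and 1.05 with vehicle to 11.08, 9.53, and 8.24 with NJT-2. Its log2 fold change was 3.52 (SE 0.44, adjusted p = 0.0270 in edgeR). The call was lost without vehicle replicate 1, vehicle replicate 2, NJT-2 replicate 1, or NJT-2 replicate 3, where 0 genes of fatty acid handling were called. It was also lost without vehicle replicate 3, where *Cd36* was the 1 called. Unlike *Acsl1*, *Acot2* did not fall off in NJT-2 replicate 2. *Acot2* has near-identical neighbours in its gene family, and the counting could have divided reads between them. The other tested thioesterase genes *Acot13*, *Acot9*, and *Acot8* overlapped between the groups, with log2 fold changes of 0.15, 0.26, and -0.41 and adjusted p-values from 0.608 to 0.845 in edgeR. *Acot9* was at -0.08 and *Acot8* at -0.0034 without both distant libraries.

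**Figure D4:**
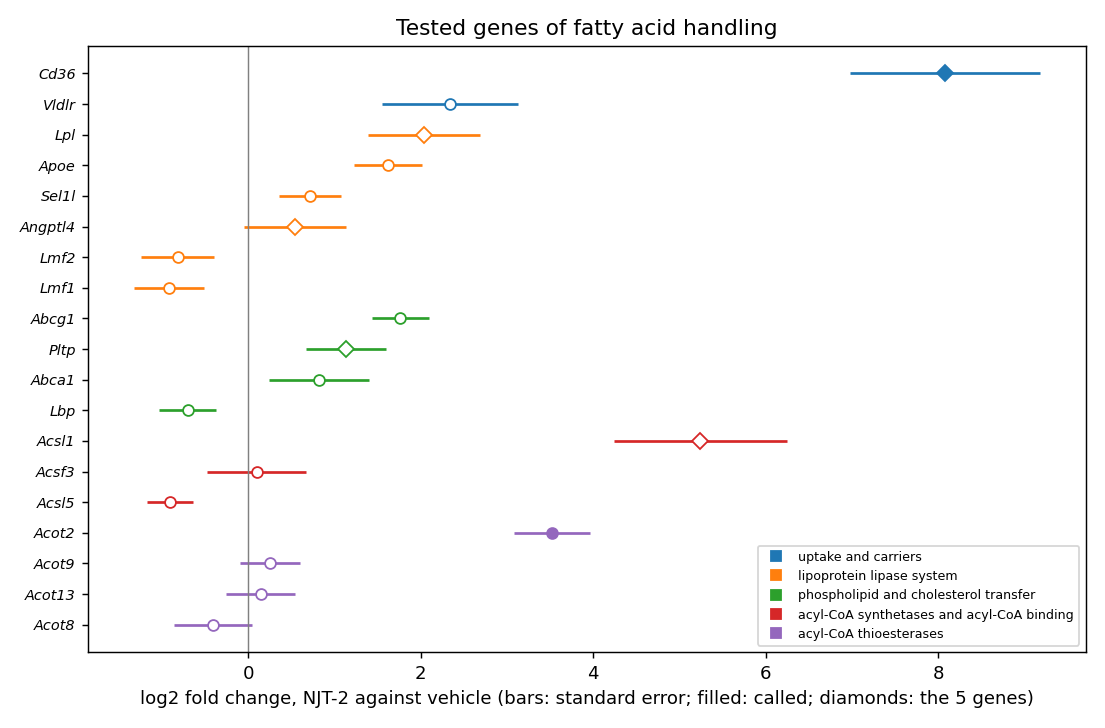
Log2 fold change with its standard error (edgeR) for the 19 tested genes of fatty acid handling, coloured by function, with diamonds for the 5 genes and filled markers for called genes. *Cd36* (8.08) and *Acot2* (3.52) are the called ones, and *Acsl5*, *Lmf1*, *Lmf2*, *Lbp*, and *Acot8* lie below 0.

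The annotation that the 5 genes share, the PPAR signaling pathway, has 28 other genes among those analysed, a list taken up after the values were seen. Of these, 22 were tested, 3 were called higher (0.567% of all tested genes were), *Adipoq* and *Plin4* among them, and none was called lower (0 in edgeR, 4 at an unadjusted p under 0.05, and 1 by DESeq2, against 0.135%, 9.72%, and 3.40% of all tested genes). At an unadjusted p under 0.05, 9 were higher, against 8.04% of all tested genes, and DESeq2 called 7 higher, against 4.40%. The 3 calls in edgeR were lost without vehicle replicate 1 or vehicle replicate 2, where 0 of all genes were called higher. The median log2 fold change of the 22 was 1.23, against 0.02 over all tested genes. In 9 of them every NJT-2 library lay above every vehicle library, and in 4 below, where 14.4% of all tested genes lay above and 25.9% lay above or below. Without both distant libraries 25 were tested, 12 were called higher and 3 lower, against 7.15% and 6.29% of all tested genes. Among the 12, *Rxrg*, *Acox2*, *Ppara*, *Plin5*, and *Adipoq* had at most 0.5 FPKM in every vehicle library. They reached the mean FPKM of 0.5 through the NJT-2 libraries alone, *Adipoq* and *Plin5* also with all libraries, so this filter fixed their direction. With all libraries *Scd3* (0, 0, and 0.74 FPKM with vehicle) likewise passed through the NJT-2 group, and *Apoa2* (0.64, 0.81, and 0 with NJT-2) through the vehicle group. *Adipoq*, *Plin5*, and *Scd3* are among the 9 genes with every NJT-2 library above vehicle, and *Apoa2* is among the 4 below. *Adipoq* and *Plin5* are also among the 9 higher at an unadjusted p under 0.05 and the 7 called higher by DESeq2. With all libraries, *Cpt1c* and *Fabp7* were among the genes with every NJT-2 library below vehicle. Their log2 fold changes were -1.61 and -1.65 (adjusted p = 0.137 and 0.219 in edgeR).

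As a description of likeness, the 3 genes whose log2 CPM (counts scaled to library size) followed each gene most closely over the 6 libraries were taken from 3466 others whose mean FPKM reached 1. The 6 points fall into the study's groups and include the distant libraries, so that many genes reach a high value. For *Acsl1* they were *Sdha*, *Pdhx*, and *Cs* (Pearson r of 0.999, 0.997, and 0.996), which encode mitochondrial enzymes of the citrate cycle and the pyruvate dehydrogenase complex. For *Angptl4* they included *Stc2* and *Gadd45b* (r of 0.994 and 0.990). They were, for *Lpl*, *Ocel1*, *Oplah*, and *Ubqln1* (r between 0.991 and 0.998), for *Cd36*, *Alcam*, *Msh3*, and *Mrs2* (r between 0.992 and 0.996), and for *Pltp*, *Ppp2ca*, *Anxa7*, and *Ppp3cc* (r of 0.996 for each). None of the 5 genes was among the closest of another, and between 76 (for *Lpl*) and 250 (for *Pltp*) genes had an r over 0.9.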

How the data were processed

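RNA-seq was measured in 6 libraries, 3 per group, grouped by their titles. The authors aligned the reads to GRCm38 (the submitters' processing notes list cutadapt 1.9, HISAT2 2.2.1, and StringTie 2.1.6) and deposited raw read counts per gene and FPKM values, which the authors rounded. The counting tool, annotation release, and use of strand are not given in the sources used here. The table used here ends within line 4865, which was left out, and further genes were not analysed here. Ranks, adjusted p-values, list counts, and shares of all tested genes therefore refer to the 4864 genes before it. They are part of the 55450 of GENCODE M21, used for gene lengths and overlaps, and these 4864 hold 27.7% to 32.5% of each library.

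Counts were tested in R 4.3.3 with edgeR 4.0.16 (TMM normalization, Benjamini-Hochberg adjustment over all 3705 tested genes). SE is the log2 fold change divided by the square root of F. DESeq2 1.42.0 and limma 3.58.1 served as alternatives. The genes and lists were chosen with earlier results of these data known. Named genes were the 5 genes, called genes of the lists, up to 4 examples per group by mean FPKM, and the 3 genes most like each gene (log2 CPM, prior count 2). *Gpihbp1*, *Slc27a6*, *Acsl6*, *Csf1r*, *Vegfa*, *Ndrg1*, *Myh11*, *Cd68*, *Msr1*, *Cd163*, *Retn*, *Dcn*, *Pdgfrb*, *Col1a1*, *Ctsa*, and genes of the PPAR pathway were named after their values were seen. The lists were refitted without both distant libraries after seeing the data. Some genes that this rule names are not reported here. The fit was tested on simulated data. At these depths the spread between libraries sets the precision.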

Additional observations from a re-analysis of the deposited data

How the results depend on the processing

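Over 18 alternatives the log2 fold change stayed above 0 for *Cd36* (7.38 to 9.36), *Lpl* (1.46 to 2.96), *Acsl1* (4.21 to 5.77), and *Pltp* (0.74 to 1.40), and these genes were called in 14, 3, 5, and 0 of them. Leaving out each library in turn gave 7.53 to 9.36 for *Cd36*, 4.70 to 5.77 for *Acsl1*, -0.50 to 0.90 for *Angptl4*, between 0 and 80 genes called over all, and between 0 and 3 called in the fatty acid handling list (2 with all libraries, *Cd36* and *Acot2*). Over all genes, 1 was called without vehicle replicate 1, NJT-2 replicate 1, or NJT-2 replicate 3, 0 without vehicle replicate 2 (424 at an unadjusted p under 0.05 in edgeR), 4 without vehicle replicate 3, and 80 without NJT-2 replicate 2. With DESeq2, *Lpl* (2.05) and *Acsl1* (5.25) were called, with 7 genes of the list and 289 over all. With both distant libraries left out, the values were 2.96 for *Lpl*, 5.50 for *Acsl1*, -0.45 for *Angptl4*, 5 genes of the list, and 496 over all. With voom and sample quality weights they were 2.83, 5.601, -0.52, 7, and 727, and the adjusted p of *Angptl4* was 0.0339. The cause of these differences was not tested. The replicate block, with the number in the labels, gave 4.71 for *Acsl1*, which was called (adjusted p = 0.0179), and 57 genes called over all, and changed no other call of the 5 genes. Deviations of same-numbered libraries correlated at 0.179, 0.032, and -0.207, so the numbers were not taken to pair them.

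Over all genes, 21 were called higher and 5 lower, against 20 and 9 with upper-quartile factors, 22 and 10 with limma on log2(FPKM + 1), and 163 and 126 with DESeq2. The median log2 fold change of all genes was 0.02, and 0.16 with the implied library totals, 0.14 with limma on log2(FPKM + 1), and 0.17 with a pseudocount of 0.1. Relative to that shift no direction of the 5 genes changed. With each library's trend with gene length taken out, *Lpl* had its lowest value, 1.46. With 28 counts of *Cd36* in vehicle replicate 1, depth limits its fold change more than that of the other 4 genes.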
